A study of Rattus with 4 samples.

Results

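Solute carrier genes were examined in 2 lists of RBM25 peaks from H9C2 cells, a rat cell line that was taken from the embryonic heart and has features of myoblasts. A peak was a member when the gene assigned to it had a symbol made of Slc, a subfamily number, the letter a and a member number. The rule used names alone and no measured value. It found 17 of the 2696 peaks of immunoprecipitate (IP) replicate 1 and 48 of the 8108 peaks of replicate 2, which lay in 10 genes in all. The series has 4 samples, 2 RBM25 IPs and 2 inputs, all from H9C2 cells cross-linked with ultraviolet light and digested with micrococcal nuclease; the inputs were not used here. The labels of these samples name no treatment beyond IP or input. The series' design text speaks of cells that overexpressed RBM25 for a separate RNA-seq experiment, and whether the cross-linked cells did so is not given in the sources used here. All samples are of this 1 line, and the labels do not say whether the replicates were separate cultures. Of 9 myoblast markers, 2 had a peak in replicate 1 and 4 in replicate 2 (Tnnt2, Acta2, Tpm1 and Vim). Myod1, Myog, Des, Actc1 and Chrna1, the other myoblast markers, had none in replicate 2. The 3 endothelial and 3 macrophage markers had none in either list. Among all protein-coding genes 3.68% had a peak in replicate 1 and 7.25% in replicate 2, so counts among 3 markers say little. A list of peaks cannot show that a transcript is absent.

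RBM25 is an RNA-binding protein that associates with the U1 snRNP, the particle that recognises the start of an intron, and it influences which splice sites are used. Solute carriers are membrane proteins that move ions, amino acids, sugars, nucleotides and metabolites across the plasma membrane or the membranes of organelles. In heart and muscle cells they set chloride, pH and cell volume, take up amino acids and taurine, and exchange ADP for ATP across the inner mitochondrial membrane.

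Each peak carries the authors' tag value, given per 50-nt bin and as a mean over bins in longer peaks. No scaling of it for depth was seen, as the tags of single-bin peaks are whole. The lists hold no input value, so tags here describe and rank peaks and are not a measure of enrichment. No peak was listed below 19 tags in replicate 1 or 20 in replicate 2, and how deeply the libraries were sequenced is unknown. With 1 peak list per library and no value below that floor, no test between replicates or against input could be made. Shares are given with 95% Wilson intervals, which cover counting error only; peaks of 1 gene are not independent, so true errors are wider. Positions are those of the deposited lists on mRatBN7.2.

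Few members of the family had a peak. Of 338 solute carrier symbols in RefSeq's gene table of assembly GRCr8, which served for names and gene order,, 5 had a peak in replicate 1 (1.48%, 0.633 to 3.42), where the share over all protein-coding genes was 3.68%. In replicate 2, 10 had a peak (2.96%, 1.61 to 5.36) against 7.25% of protein-coding genes. The 5 genes of replicate 1 were all among the 10 of replicate 2 (1.48% of the symbols, with 3.31% of protein-coding genes in both lists). In each list taken alone the share for solute carriers was below that for all genes, and so was the upper limit of its interval; for genes in both lists the upper limit, 3.42%, was not. The lists hold no expression values, so the part of unexpressed carriers in this was not tested.

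The 10 genes came from 7 of the 50 subfamilies. The cation-chloride cotransporters (subfamily 12) had peaks in 2 of 9 genes and the most peaks, 10 in replicate 1 and 20 in replicate 2. Mitochondrial carriers (subfamily 25), the largest subfamily with 49 genes, had peaks in 2 genes, with 1 and 3 peaks. The sodium-coupled neutral amino acid transporters (subfamily 38) had peaks in 2 of 11 genes, 8 in all, and none of them in replicate 1. Subfamilies 1, 4, 6 and 7 had 1 gene each. Slc12a4 alone held 8 of the 17 peaks of replicate 1 (47.1%, 26.2 to 69.0) and 17 of the 48 of replicate 2 (35.4%, 23.4 to 49.6), so any summary over the family leans on this gene.

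**Figure D1:**
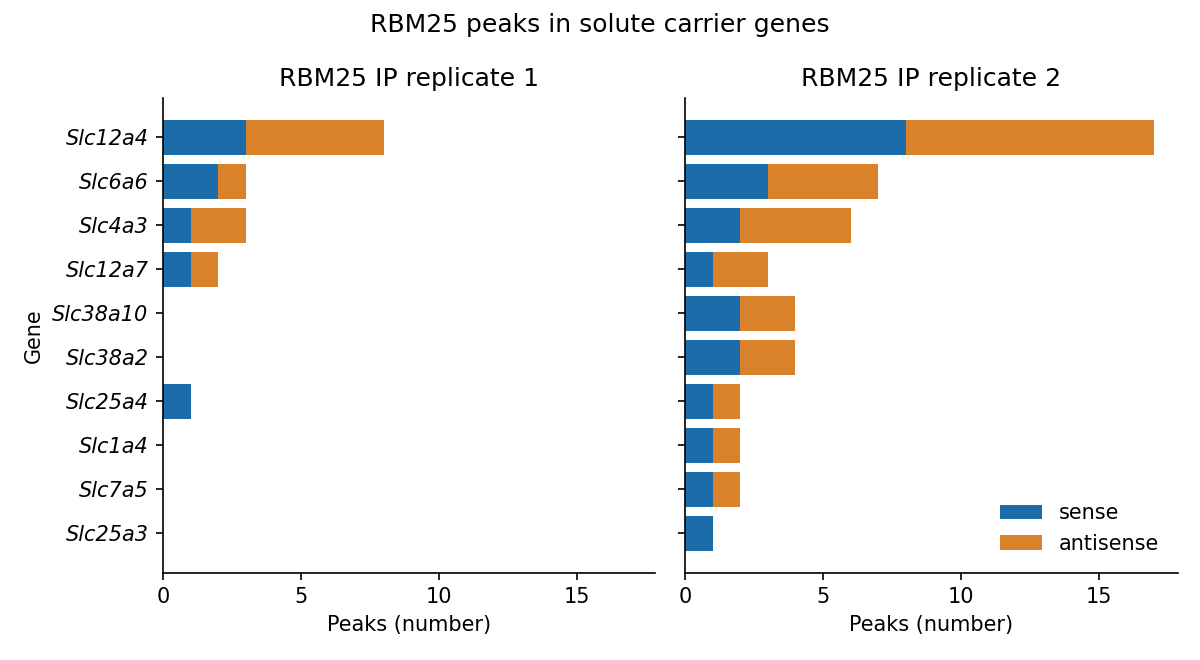
Number of RBM25 peaks in each of the 10 solute carrier genes (horizontal axis) in IP replicate 1 (left) and replicate 2 (right), split into peaks on the strand of the gene (sense, blue) and on the other strand (antisense, orange). Slc12a4 leads both panels with 8 and 17 peaks, and 5 genes have peaks in replicate 2 alone.

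Slc12a4 encodes the potassium-chloride cotransporter KCC1, which lets swollen cells lose salt and water. Its peaks lay on chromosome 19 between 33839400 and 33860250, with the gene on the minus strand. Among the 922 genes with a peak in replicate 1 it ranked 44 by number of peaks and 45 by its tallest peak. Among the 1819 genes of replicate 2 it ranked 57 and 21. All 8 of its replicate 1 peaks had a same-strand partner in replicate 2, and all 6 bins called in replicate 1 on either strand were among the 15 called in replicate 2. The peaks fell into 5 groups more than 500 nt apart.

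The first group by tags in replicate 1 was at 33840550 to 33840600. Its antisense peak, the tallest solute carrier peak of replicate 1, had 54 and 52 tags in replicates 1 and 2. The sense peak of the same bin was called in replicate 2 alone, with 65 tags and an authors' p-value of 1.3e-14, and covered an exon-intron boundary, with a fraction of 0.74 in coding sequence and 0.26 in intron. Beside it, at 33840350 to 33840450, replicate 2 had a sense peak of 71.5 tags and an antisense peak of 67 tags, and replicate 1 had none. The sense peaks of this group were thus among the tallest of the gene in replicate 2 and were missing from the replicate 1 list.

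The second group lay 19600 nt upstream of that bin, at 33860150 to 33860200, near the 5' end of the called span. Its antisense peak had 50 and 110 tags in replicates 1 and 2, and in the latter it stood at rank 47 of 8108 peaks. The sense peak had 20 and 36 tags; in replicate 1 its coding fraction was 0.84 and its intronic fraction 0.16. At this position the antisense strand was the higher in each replicate, by 50 tags to 20 and by 110 to 36. The replicate 2 sense peak ran to 33860250, so its 36 tags are a mean over 2 bins, while the 110 are of 1 bin.

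The other positions were lower than these antisense peaks, and where both strands were called their tags were closer to equal than at the upstream position. At 33839450 to 33839500, 1100 nt downstream of the first group and wholly coding in replicate 1, the sense peak had 32 and 32.3 tags in replicates 1 and 2. The antisense peak there had 32 and 40. At 33842500 to 33842550 the sense peak had 22 and 27 tags and the antisense peak 20 and 24, so both strands were close to the floor of the lists. An antisense peak that began at 33855200 had 26.5 and 46.3 tags, and a sense peak of 41 tags joined it in replicate 2. Replicate 2 added positions at 33841600, 33842100 and 33842950 with 21 to 28 tags, on both strands at 33842100 and 33842950 and antisense alone at 33841600.

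Summed over the bins of its peaks, Slc12a4 had 74 sense and 209 antisense tags in replicate 1, an antisense share of 73.9%. In replicate 2 it had 490 sense and 610 antisense tags, a share of 55.5%. A bin under the floor adds nothing to these sums. In replicate 1 the antisense peaks at 33840550 (54 tags) and 33855200 (26.5) had no listed sense partner, where replicate 2 listed sense peaks of 65 and 41. The part of the floor in the difference between the shares was not tested. Replicate 1 listed 3 sense peaks beside 5 antisense ones, and replicate 2 listed 8 beside 9. Of the sense peaks, 2 of 3 and 7 of 8 held both exon and intron sequence, and none lay mainly in an intron. In the name table a noncoding gene, LOC120098640, overlaps Slc12a4; the table gives no strand, the lists hold no peak under that name, and the part of its RNA in the antisense peaks was not tested.

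**Figure D2:**
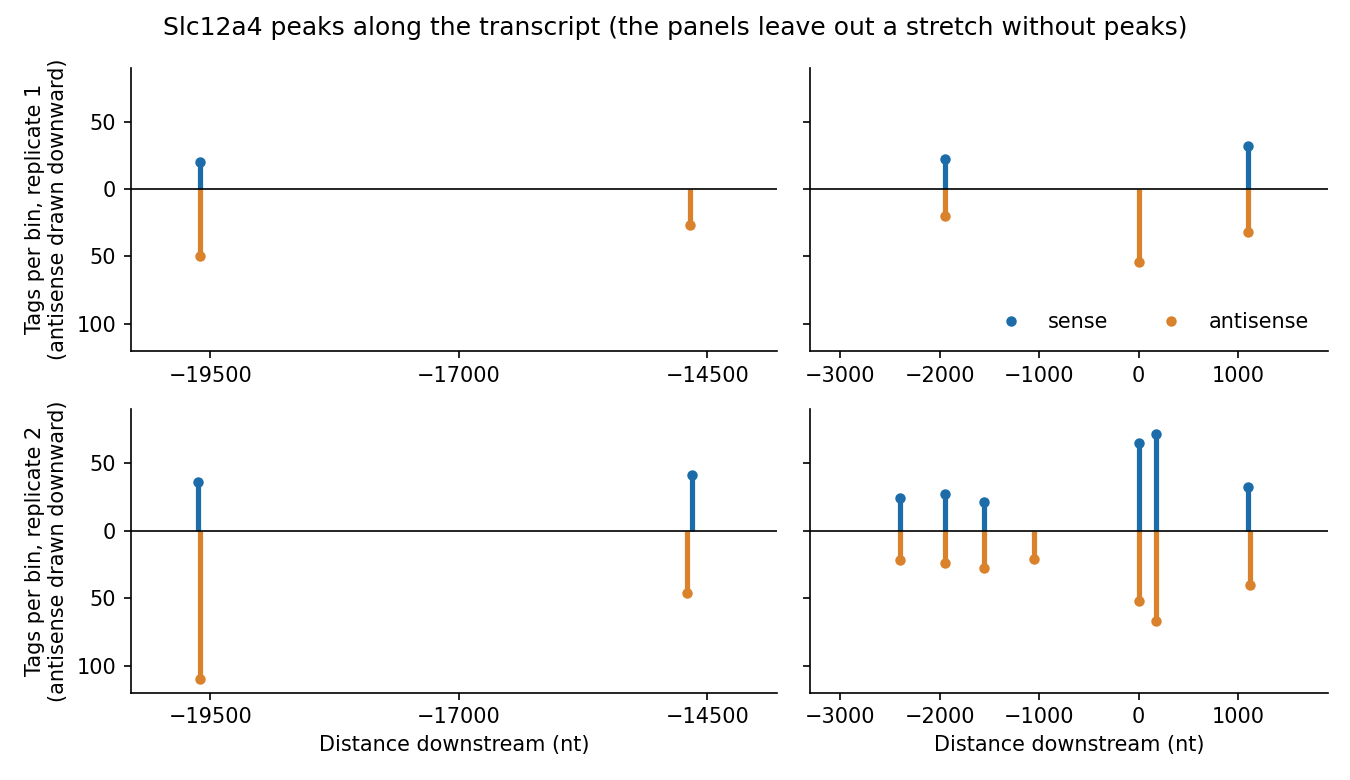
Slc12a4 peaks by distance in nt downstream along the transcript from the bin of the tallest replicate 1 peak (horizontal axis, 2 panels at the same scale), with tags per bin drawn upward for sense and downward for antisense peaks; replicate 1 is above and replicate 2 below. Every replicate 1 position recurs in replicate 2, where sense peaks of 65 and 71.5 tags appear at and beside the zero position, and the antisense peak 19600 nt upstream reaches 110 tags.

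Slc12a7 encodes KCC4, another potassium-chloride cotransporter, and was the other member of its subfamily with peaks. At chromosome 1, 29525900 to 29525950, the antisense peak had 34 and 31 tags in replicates 1 and 2. The sense peak of that bin, almost wholly coding with a fraction of 0.98, had 35 tags in replicate 1 and was not listed in replicate 2, whose floor was 20 tags. Thus 1 strand recurred and the other did not, although both had nearly equal tags where both were called. Replicate 2 also had a pair at 29481750 to 29481800, 44100 nt away, with 20 tags on each strand, the lowest value in that list. The sense peak of that pair spanned a coding exon and an intron with fractions of 0.64 and 0.36.

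Slc4a3 encodes AE3, an exchanger of chloride for bicarbonate known from heart and brain. All 3 of its replicate 1 peaks recurred in replicate 2. At chromosome 9, 77040550 to 77040600, the sense peak had 36 and 51 tags in replicates 1 and 2, with fractions of 0.78 in coding sequence and 0.22 in intron. The antisense peak of that bin had 29 and 48 tags. The antisense peak at 77040800 to 77040850 had 26 and 28 tags, and replicate 2 listed a sense peak of 22 tags there, again across a coding exon and intron. Replicate 2 added antisense peaks without a sense partner at 77038150 with 49 tags and at 77039150 with 28. All sense peaks of this gene, 1 in replicate 1 and 2 in replicate 2, held both exon and intron sequence.

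Slc6a6 encodes the taurine transporter, which supplies the taurine that heart muscle holds in quantity. Its peaks spanned 55200 nt of chromosome 4 and were placed unlike those of the other recurrent members. A sense peak wholly inside an intron, at 124213000 to 124213050, had 27 and 30 tags in replicates 1 and 2. A sense peak wholly in the 3' untranslated region, at 124268050 to 124268100, had 24 and 36 tags. None of its sense peaks, 2 in replicate 1 and 3 in replicate 2, crossed an exon-intron boundary, and the third was again in the 3' untranslated region, with 22 tags at 124267800. Antisense peaks were low and did not recur: 1 of 19 tags in replicate 1, the lowest value in that list, and 4 of 21 to 25 tags in replicate 2. The noncoding gene LOC102548902 overlaps Slc6a6 in the name table, and its part in these peaks was not tested.

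The mitochondrial carriers had no shared peak. Slc25a4, named here after its values were seen, encodes the ADP/ATP translocase ANT1 of heart and skeletal muscle. Replicate 1 had a peak of 31 tags at chromosome 16, 46072900 to 46072950, with a fraction of 0.32 in the 5' untranslated region and no class given for the rest. Replicate 2 had instead a pair 2450 nt away, inside coding sequence at 46075400 to 46075450, with 23 sense and 27 antisense tags. A peak in each list therefore did not mean the same position. Slc25a3, which encodes the mitochondrial phosphate carrier, had 1 sense intronic peak of 26 tags in replicate 2, at chromosome 7, 25613450 to 25613500. The small nucleolar RNA gene Snora53 overlaps Slc25a3 in the name table, and whether its RNA lay under this peak was not tested.

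The 5 genes with peaks in replicate 2 alone were Slc25a3 and 4 amino acid transporter genes. Slc38a2 encodes SNAT2, a sodium-coupled carrier of small neutral amino acids. It had pairs at chromosome 7, 127862450 to 127862500, with 27 sense and 21 antisense tags, and at 127863100 to 127863150, with 39 sense and 31 antisense tags. Both sense peaks touched the 5' untranslated region, with a fraction of 0.66 beside coding sequence at the first position and of 0.46 beside intron at the second. In this gene the sense strand was the higher at each position. Slc38a10, of the same subfamily, had 4 peaks of 21 to 23 tags on chromosome 10 between 105388600 and 105393000. Slc7a5, which encodes the large neutral amino acid transporter LAT1, had a pair inside coding sequence at chromosome 19, 49963700 to 49963750, with 24 tags on each strand. Slc1a4, which encodes the neutral amino acid exchanger ASCT1, had an antisense peak of 24 tags and, in the next bin, an intronic sense peak of 20 tags on chromosome 14. Apart from Slc38a2, no peak of these 5 genes had more than 26 tags, which is the median of replicate 2.

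Slc38a9, a gene named by a study of RBM25 in H9C2 cells, had 0 peaks in the lists, under its symbol or under the synonym in the name table. It encodes a lysosomal arginine sensor that signals to the kinase complex mTORC1. Of 27 other genes of lysosomal amino acid sensing matched by name, 1 had a peak in replicate 1, the GTPase gene Rheb with 19 antisense tags, and 0 had a peak in replicate 2. The shares over all protein-coding genes were 3.68% in replicate 1 and 7.25% in replicate 2. A position below the floor of 19 or 20 tags would not be listed, so the lists do not show whether RBM25 touches these transcripts.

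Recurrence was then compared with that of the whole lists. Of the 17 solute carrier peaks of replicate 1, 14 overlapped a same-strand peak of replicate 2 (82.4%, 59.0 to 93.8), beside 61.0% of all peaks. Without Slc12a4 it was 6 of 9 (66.7%, 35.4 to 87.9). Among sense peaks 6 of 8 recurred, where 64.6% of all sense peaks did, and among antisense peaks 8 of 9, where 60% did. In replicate 2, 14 of 48 peaks were shared (29.2%, 18.2 to 43.2), beside 20.3% of all peaks; without Slc12a4 it was 6 of 31 (19.4%, 9.19 to 36.3). The interval of the family held the share of the whole list in both replicates, and at 17 and 48 peaks no difference from it was detectable.

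By gene, all 5 members with a peak in replicate 1 had one in replicate 2, beside 89.7% of all such genes. Of the 10 in replicate 2, 5 had one in replicate 1, beside 45.5%. A peak shared by position was found in 4 of the 5 (Slc12a4, Slc12a7, Slc4a3 and Slc6a6), beside 70.7% of genes with a peak in replicate 1. These 4 were 1.18% of the 338 symbols (0.461 to 3.0), beside 2.62% of protein-coding genes. With sense peaks alone Slc12a7 dropped out and 3 genes were left.

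Across the 14 shared pairs the tags were higher in replicate 2 in 12 and lower in 2, the antisense peaks of Slc12a4 at its tallest replicate 1 position and of Slc12a7. The ratio of replicate 2 to replicate 1 had a median of 1.24 and ran from 0.912 to 2.20; over all 1645 shared pairs the median was also 1.24. Both ends of that range came from the cation-chloride cotransporters, the lowest from Slc12a7 and the highest from the antisense Slc12a4 peak of 50 and 110 tags. The pairs' rank correlation (Spearman's rho) was 0.696 and their Pearson's r was 0.715 (n = 14 pairs), given as a description since 8 pairs are of Slc12a4 and all share the same 2 libraries. Of these pairs, 10 had the same start and end in both lists.

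**Figure D3:**
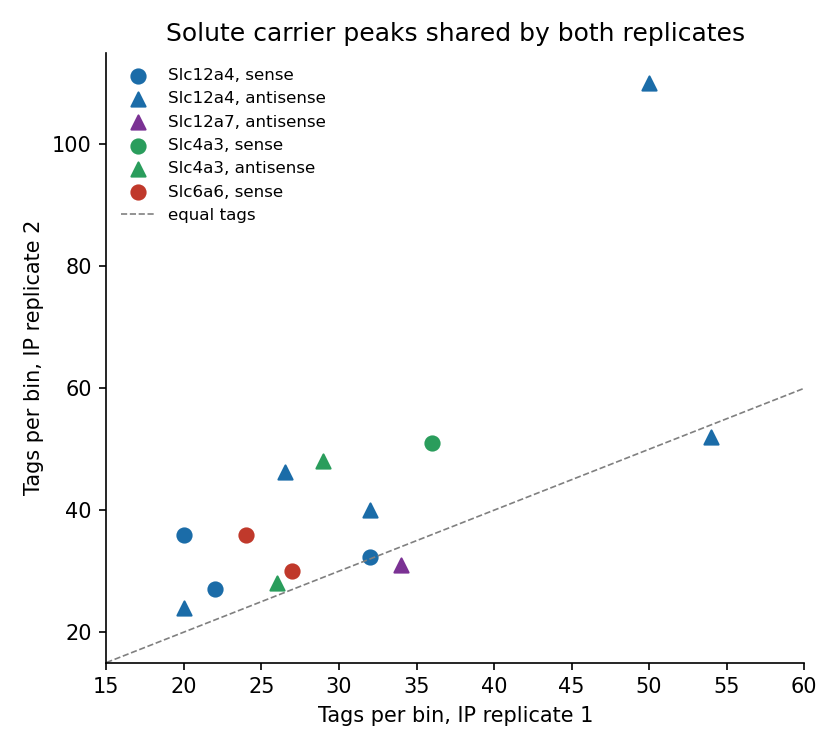
Tags per bin of the 14 solute carrier peaks shared by position, in IP replicate 1 (horizontal axis) and replicate 2 (vertical axis, another scale), coloured by gene, with circles for sense and triangles for antisense peaks; the dashed line marks equal tags. Most points, 12 of 14, lie above the line, and the Slc12a4 antisense peak at 50 and 110 tags stands highest.

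Peaks that did not recur were mostly low in replicate 2. There, 34 of 48 peaks had no partner, with a median of 23.5 tags against 36 in the 14 that had one. All 13 members with 22 tags or fewer were among the unshared. Of the 34, 21 lay in genes with a peak in replicate 1 and 13 in genes without. The tallest of the unshared were the Slc12a4 sense peaks of 65 and 71.5 tags with the antisense peak of 67, and the Slc4a3 antisense peak of 49. In replicate 1 the 3 unshared peaks, of Slc12a7, Slc25a4 and Slc6a6, had 35, 31 and 19 tags. Their median of 31 was not below the 28 of the shared peaks there, and of 4 members with 22 tags or fewer 1 was unshared.

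Antisense positions made up 9 of 17 solute carrier peaks in replicate 1 (52.9%, 31 to 73.8) and 26 of 48 in replicate 2 (54.2%, 40.3 to 67.4). The shares over all genic peaks were 53.7% and 50.7%, inside both intervals. Every one of the 10 genes had a sense peak in each list where it had a peak. Peaks on both strands were found in 4 of 5 and 9 of 10 of the genes, where 53.1% and 68.9% of all genes with a peak had them; Slc25a4 in replicate 1 and Slc25a3 in replicate 2 were sense only. No solute carrier gene was antisense only, against 28.7% and 15.9% of all genes, and for 5 and 10 genes the upper limits of that share are 43.4% and 27.8%.

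Opposite strands often met in the same bin. In replicate 1, 10 of 17 peaks had a partner on the other strand (58.8%, 36 to 78.4), and in replicate 2 34 of 48 did (70.8%, 56.8 to 81.8), beside 45.9% and 70.3% of all genic peaks. In the 5 pairs of replicate 1 the antisense share of tags had a median of 49.3%, from 44.6% in Slc4a3 to 71.4% in Slc12a4. In the 17 pairs of replicate 2 the median was 48.5%, from 43.8% in Slc38a2 to 75.3% in Slc12a4. The medians over all genic pairs were 51.2% and 51.1%. Outside the upstream position of Slc12a4, no pair of the family had more than 57.1% of its tags on the antisense strand. A pair counts only where both strands pass the floor, so a pair with 1 strand under it is not seen. Longer peaks enter as means over their bins, as does the sense peak of the 75.3% pair, so its 2 strands cover unlike spans.

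**Figure D4:**
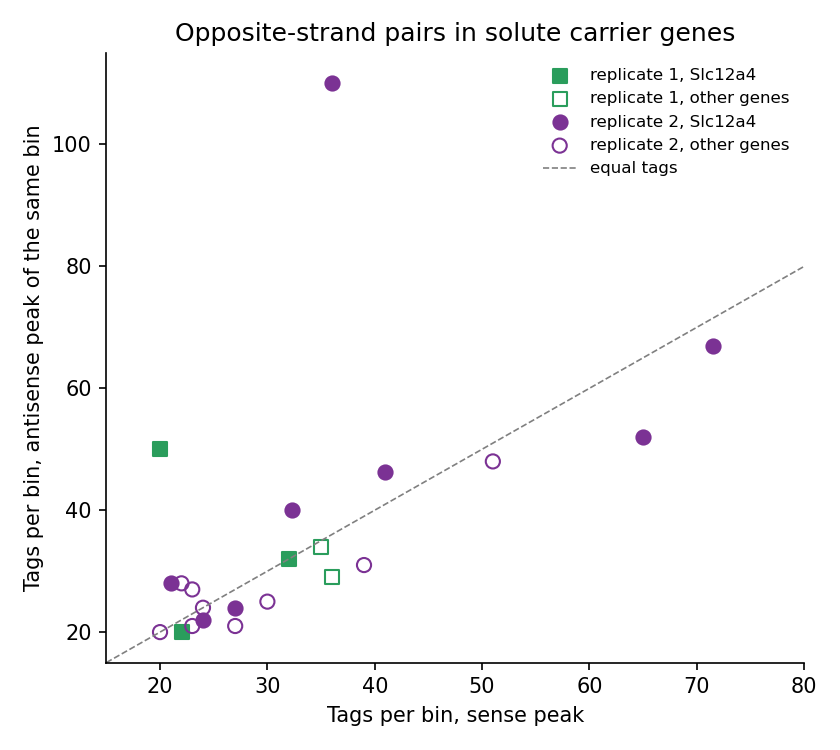
Tags per bin of sense peaks (horizontal axis) and of the antisense peaks that overlap them (vertical axis, another scale) in solute carrier genes, for 5 pairs of replicate 1 (squares) and 17 of replicate 2 (circles); filled marks are Slc12a4 and the dashed line is equal tags. Most pairs lie near the line, and the marks at 20 and 50 tags and at 36 and 110 tags are the same Slc12a4 position in each replicate. The value of 36 is a mean over 2 bins.

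By the class that covers most of a peak, coding sequence held 5 of 17 peaks in replicate 1 (29.4%, 13.3 to 53.1) and 14 of 48 in replicate 2 (29.2%, 18.2 to 43.2), beside 25.2% and 30.0% of all genic peaks. Introns held 1 and 5 (5.88% and 10.4%), beside 14.9% and 15.3%. The 3' untranslated region held 1 of 17 peaks (5.88%, 1.05 to 27) and 2 of 48 (4.17%, 1.15 to 14), beside 0.386% and 0.698% of all genic peaks, which lay below both intervals. All of these peaks were of Slc6a6, and the replicate 1 peak and 1 of those of replicate 2 are the same position, so the class rests on 1 gene. The 5' untranslated region held 1 in each list, of Slc25a4 and of Slc38a2. Among sense peaks, 4 of 8 in replicate 1 (50%, 21.5 to 78.5) and 12 of 22 in replicate 2 (54.5%, 34.7 to 73.1) held exon and intron sequence together. Any fraction counted, down to an intronic fraction of 0.02 in a Slc12a7 peak of replicate 1 and a Slc12a4 peak of replicate 2. The shares over all sense peaks were 67.8% and 71.2%, inside those intervals. In replicate 2 this rests on Slc12a4: without it the count was 5 of 14 (35.7%, 16.3 to 61.2), an interval that lies below 71.2%. Slc12a4 itself had 7 of 8, which is 7 of the family's 12 boundary peaks in that list. In replicate 1 the count without Slc12a4 was 2 of 5, with an interval of 11.8 to 76.9% that holds the 67.8%. A lower share without this gene was thus seen in replicate 2 alone, and 5 peaks are too few to detect it in replicate 1.

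Tags of the family were close to those of the lists. The median was 29 in replicate 1 beside 24 over all genic peaks, and 26.5 in replicate 2 beside 26. Sense and antisense peaks had medians of 29 each in replicate 1, and of 26.5 and 26 in replicate 2. The tallest peaks, 54 and 110 tags, were both antisense in Slc12a4. Peaks were mostly single bins of 51 nt, 16 of 17 and 42 of 48, and all longer ones were in Slc12a4.

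**Figure D5:**
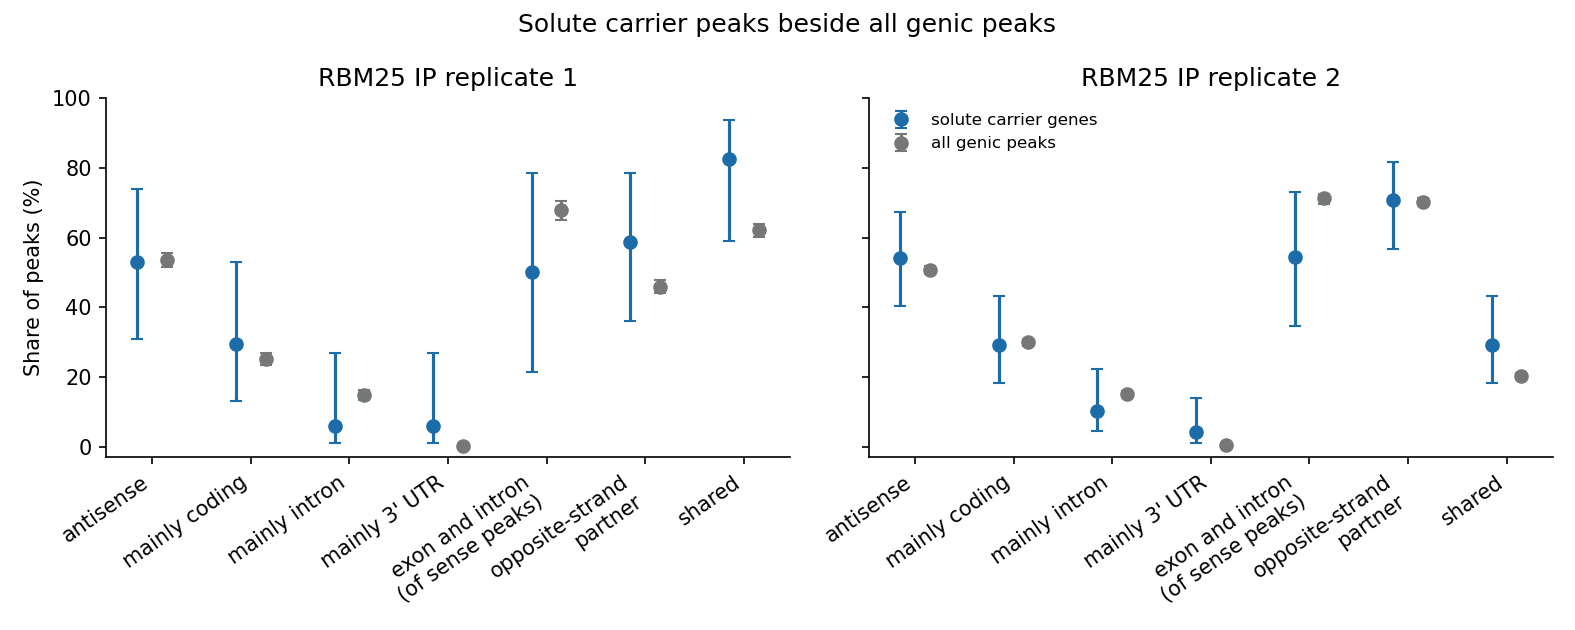
Share of peaks in percent (vertical axis) that were antisense, mainly coding, mainly intronic, mainly in the 3' untranslated region, across exon and intron (of sense peaks), partnered on the opposite strand, or shared with the other replicate, for solute carrier genes (blue) and all genic peaks (grey) in each IP replicate; bars are 95% Wilson intervals. The blue intervals are wide and include the grey points of both panels in every class but the 3' untranslated region, where the grey points of 0.386% and 0.698% lie below them.

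Other transport genes were looked up for comparison, beside the shares of all protein-coding genes with a peak. These shares were 3.68% in replicate 1, 7.25% in replicate 2 and 2.62% for a shared peak, and no difference from them was tested. Of 27 ion pump genes, 3 had a peak in each list and 2 had a shared peak, Atp2a2 and Atp6v1e1. Atp2a2, which encodes the calcium pump SERCA2 of the cardiac sarcoplasmic reticulum, had at chromosome 12, 34109750 to 34109800, a sense peak of 21 and 45 tags in replicates 1 and 2 and an antisense peak of 22 and 46. Another shared pair, at 34106000, was near the floor, with 20 and 20 sense tags and 22 and 20 antisense tags. At 34074050 an antisense peak of 22 and 48 tags was shared. Atp6v1e1, a subunit gene of the proton pump that acidifies lysosomes, had an antisense peak of 25 and 28 tags. Of 24 ABC transporter genes, 1 had a peak in replicate 1 and 2 in replicate 2, and the shared one was Abcf1. Its tallest shared peak was antisense, with 41 and 35 tags on chromosome 20 at 2807750. Its shared sense peaks had 25 and 31 tags there and 25 and 28 at 2808000, and its other shared antisense peaks were lower than the tallest. Abcf1 belongs to the ABC family by its ATP-binding domains and acts in translation, not in transport.

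Regulators and partners of the carriers were also looked up, beside the same shares over all protein-coding genes (3.68%, 7.25% and, for a shared peak, 2.62%). Of 16 genes that control cation-chloride cotransport or cell volume, 1 had a peak in replicate 1 and 2 in replicate 2. Wnk1, the kinase gene at the head of the pathway that switches these cotransporters, had a shared pair at chromosome 4, 153252950 to 153253000. Its antisense peak there had 53 and 61 tags in replicates 1 and 2, and its sense peak 33 and 40, so the strand order was the same in both. Elsewhere Wnk1 shared lower peaks, antisense with 29 and 22 tags and sense with 30 and 30. Oxsr1, which encodes a kinase that WNK1 activates, had 3 peaks of 27 to 57 tags in replicate 2 and is named after its values were seen. Of 20 partner genes, 1 had a peak in each list: Bsg, which encodes basigin, the chaperone of the monocarboxylate carriers, with a shared coding peak of 22 and 27 tags. The monocarboxylate carriers themselves (subfamily 16) had none.

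Related names fell outside the membership rule and were singled out after the lists were read. Slco3a1, an organic anion transporter gene, had a pair of 30 and 31 tags in replicate 2. Slc8b1, the gene of the mitochondrial sodium-calcium exchanger, had a pair of 21 and 27 tags there. Slc4a1ap, named for an adaptor of the anion exchanger AE1 and itself no transporter, had 2 antisense peaks of 20 and 21 tags. None of these had a peak in replicate 1.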

How the data were processed

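RBM25-bound RNA of H9C2 cells was sequenced from stranded total RNA libraries, per the labels' protocols. Per the submitters' processing notes, HISAT2 and the build mRatBN7.2 were used; which program called the peaks, and whether it used the inputs, is not given in the sources used here. For each peak, the deposited lists give tags and a p-value, per the file headers. The deposited tags are a signal per 50-nt bin; they are whole in single-bin peaks, so no scaling for depth was seen. Length and class were taken as deposited. Each list was matched to 1 IP sample by its name.

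Peaks were shared when they overlapped by at least 1 bin on the same strand. Location is the class covering most of a peak. Boundary peaks hold exon and intron, each at any fraction. Of the 10 member genes, 10 matched the name table. The members and lists were chosen with earlier results of these data known. Named genes were all members with a shared peak, the 5 tallest without a peak in the other list, Slc38a9 and related-list genes with a shared peak. Overlap and location steps were tested on simulated data. Alternatives covered threshold, length, overlap, strand, location, membership and Slc12a4. Genome sequence was not used here. Python 3.11.15, pandas 2.3.3 and scipy 1.17.1 were used.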

Additional observations from a re-analysis of the deposited data

How the results depend on the processing

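Of 81 values under the alternatives, 77 stayed within the interval of the reported value or, for counts, within 1.5 times it. Leaving out each replicate moved the number of solute carrier genes with a peak in both lists from 5 to between 5 and 10, by construction, since 1 list is then counted. Requiring identical start and end lowered the shared part of replicate 1 peaks to 58.8%, since peaks that a list extends by a bin drop out. With only the peaks at or below the median of the authors' p-values, 56% of replicate 2 peaks had an opposite-strand partner and the median of their tags was 36; fewer low peaks remain by construction. Counting touching peaks and every name that starts with Slc were chosen after seeing the data; the latter gave 13 genes in replicate 2. No paired analysis was possible because the peak lists analysed hold values of the IP samples and none of the inputs, which leaves no pairs to compare. Depth is unknown and may set how many peaks a list holds, and a position under the floor is not listed.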
